A study of Mus musculus with 8 samples.

Results

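Immunoproteasome and class I peptide loading genes were examined in ribosome footprints of mouse liver. Ribosome profiling sequences the short mRNA fragments that translating ribosomes protect from nuclease, so that footprints on a coding sequence count the ribosomes on it. The members were 9 genes chosen by symbol: Psmb8, Psmb9, Psmb10, Psme1, Psme2, Tap1, Tap2, Tapbp and B2m. All 9 had a row among the 7500 genes of the deposited table.

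Livers came from male wild-type FVB/N mice. One group, 0 Se, received a selenium-deficient torula yeast diet without added selenium, and the other, 0.1 Se, received the same kind of diet with 0.1 ppm selenium as sodium selenite, both from weaning and for 6 weeks. The labels list 8 libraries from 4 mice, 2 mice per diet with 2 libraries each. The table holds 1 abundance per gene, pooled by the authors over both diets, next to the authors' own comparison of the diets, which was not used. The levels below are therefore those of the liver of both diets together. No level of a single mouse or diet, no SD and no test accompanies them, and the depth of the libraries is unknown.

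The proteasome is a barrel-shaped protease, the 20S core, whose cutting sites lie on a few catalytic beta subunits. Interferon-gamma induces an alternative set of these subunits, which are built into new cores in place of the constitutive ones and give the immunoproteasome, known for making peptides that suit class I molecules. The peptides are pumped into the endoplasmic reticulum by the transporter TAP and loaded there onto class I heavy chains bound to the light chain, beta-2-microglobulin. Hepatocytes, the main cells of the liver, make class I molecules, and the immunoproteasome is most abundant in cells of the immune system.

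Levels are given as counts scaled to library size (CPM), and, to compare genes, as CPM per kilobase of coding sequence. All 9 genes together took 0.493% of all counts, and B2m alone made up 88.6% of this. Without B2m the members held 0.0561%. The median gene of the table stood at 11.3 CPM per kilobase, and 8 of the 9 members were above it, with Tap1 the exception. Without division by length Tap1 was above the median gene too, with 61.8% of genes lower. The median of the members was 57.2 CPM per kilobase. From the lowest to the highest member the level per kilobase differed 1307-fold, and 28.0-fold when B2m was left out.

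**Figure D1:**
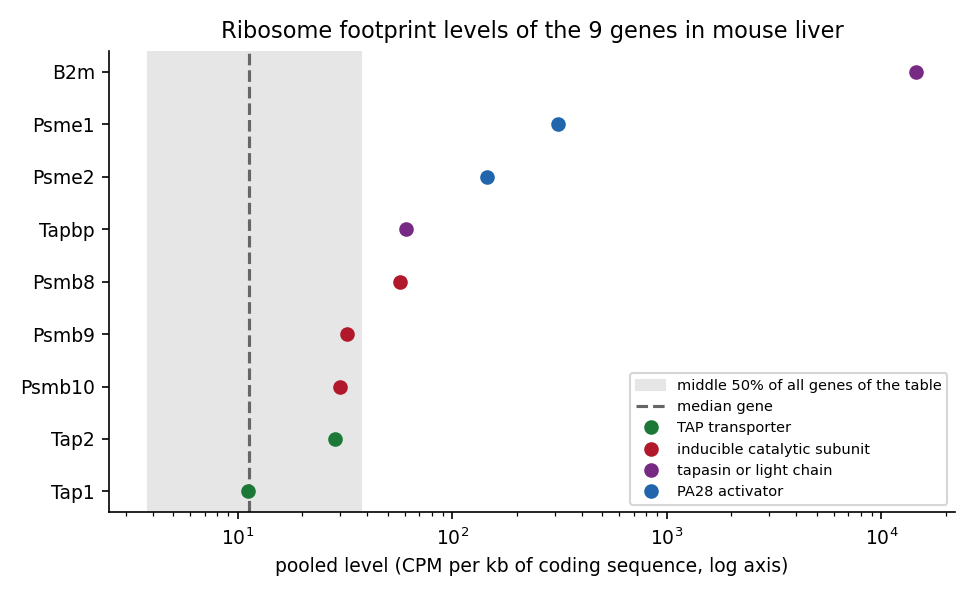
Pooled footprint level of each of the 9 genes, in CPM per kilobase of coding sequence on a log axis, with the middle 50% of all genes as a grey band and the median gene as a dashed line. Tap1 sits on the median line at 11.1, Tap2, Psmb10 and Psmb9 lie inside the band, and B2m stands apart at 14553.

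In order of level per kilobase the members were B2m, Psme1, Psme2, Tapbp, Psmb8, Psmb9, Psmb10, Tap2 and Tap1. Some neighbours in this order were close. Tapbp was 1.06 times Psmb8, Psmb9 was 1.08 times Psmb10, and Psmb10 was 1.05 times Tap2. The widest step was that from Psme1 to B2m, at 46.7-fold. Because no spread between mice could be had, none of these steps could be set against an error.

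The inducible catalytic subunits were described first. Psmb8 (LMP7, chromosome 17, 34334666 to 34338399 of the mm9 build, plus strand, 6 coding exons) replaces the constitutive Psmb5. Its level was 44.1 CPM, or 57.2 CPM per kilobase, and 81.0% of genes were lower. Psmb9 (LMP2, chromosome 17, 34318932 to 34324697, minus strand, 6 coding exons) replaces Psmb6. It had 19.4 CPM, or 32.3 CPM per kilobase. Psmb10 (MECL-1, chromosome 8, 108459628 to 108462292, minus strand, 8 coding exons) replaces Psmb7. It had 22.8 CPM, or 29.9 CPM per kilobase. Psmb8 was thus the highest of the 3 and held 47.9% of their summed level per kilobase of 119. It was 1.92 times Psmb10.

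Each inducible subunit was set beside its constitutive counterpart. Psmb6 stood at 189 CPM per kilobase, which was 5.84 times Psmb9. Psmb7 stood at 167, which was 5.57 times Psmb10. Both pairs gave nearly the same ratio. Psmb5, the counterpart of Psmb8, had no row and was not analysed here, and Psmb6 and Psmb7 were 3.30 and 2.91 times Psmb8. Of the 14 constitutive 20S subunits, 9 had a row, with levels from 103 CPM per kilobase (Psma2) to 314 (Psma7) and a median of 185. All 9 were above each of the 3 inducible subunits. The median constitutive subunit was 3.24 times Psmb8, 5.74 times Psmb9 and 6.20 times Psmb10. For Psma5 and Psmb3, 67.3% and 55.3% of 30-base coding windows also occur exactly in another gene, and 100% and 99.8% with up to 2 mismatches, as described for Psme2 below, so these values are uncertain.

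The activator PA28 caps the core and is built from PA28-alpha, encoded by Psme1, and PA28-beta, encoded by Psme2. Both genes are also induced by interferon-gamma. They were the most abundant members after B2m. Psme1 (chromosome 14, 56196960 to 56200366, plus strand, 11 coding exons) had 215 CPM, or 312 CPM per kilobase, 1.68 times the median constitutive core subunit, and 95.3% of genes were lower. Psme2 (chromosome 14, 56206278 to 56209950, minus strand, 11 coding exons) had 96.0 CPM, or 145 CPM per kilobase. Only 1 of the 9 core subunits, Psma7, was above Psme1, whereas 6 were above Psme2. The other activator with a row, Psme3 (PA28-gamma, a nuclear activator), stood at 49.0 CPM per kilobase, and the proteasome inhibitor Psmf1 (PI31) at 49.3. Both PA28 genes were listed within the range of the constitutive core subunits, and the inducible catalytic subunits below it. For Psme2 this place depends on a near-identical copy of the gene. Had footprints exactly shared with this copy been dropped, the listed counts would give 644 CPM per kilobase, above that range.

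**Figure D2:**
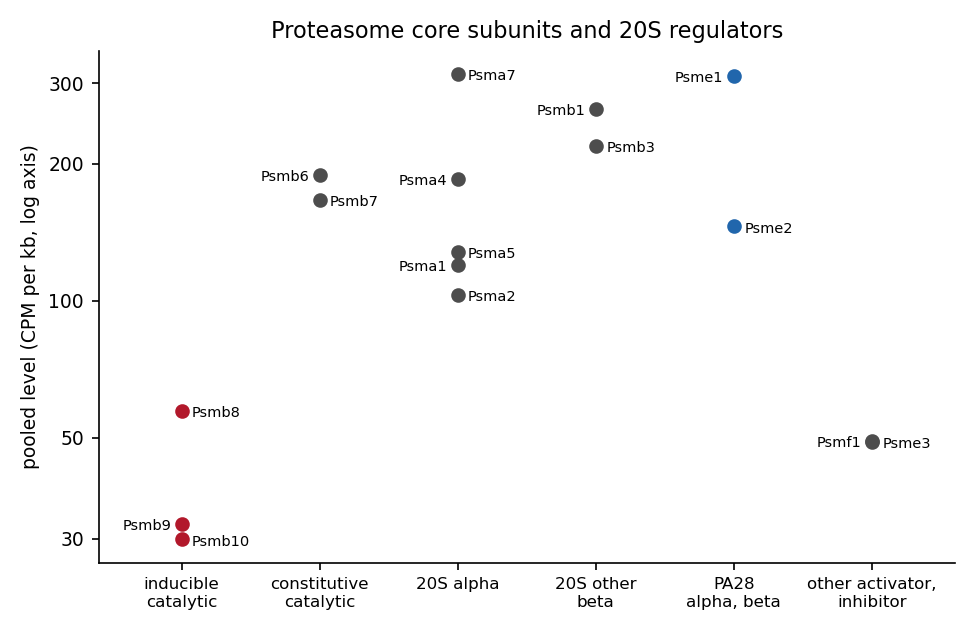
Pooled footprint level in CPM per kilobase (log axis) of the inducible catalytic subunits (red), the constitutive 20S subunits with a row (grey), the PA28 genes (blue), and Psme3 and Psmf1 (grey). The inducible subunits lie at 29.9 to 57.2, below all 9 constitutive subunits at 103 to 314, and Psme1 at 312 lies near the top.

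The ratio of Psme1 to Psme2 per kilobase was 2.14, and it depends on how footprints of a copy of Psme2 were counted. Psme2b-ps, an intronless copy on chromosome 11 (48758856 to 48759692, minus strand), has a coding sequence of 720 bases that differs from that of Psme2 at 5 positions, an identity of 99.3%. Counted from the first base of the start codon, with the base of Psme2 first, these are C312T, A369G, C489T, C519T and C543T. The stretches below, each as long as a footprint, are the most different (coding bases 514 to 543) and the first identical one (46 to 75) among the counted windows, with differing bases in capitals. They are shown because a footprint from most of the gene cannot be told from one of the copy.
Psme2, most different stretch: ggggaCgctgtagccaaggcttccaaggaC
Psme2b-ps, most different stretch: ggggaTgctgtagccaaggcttccaaggaT
Psme2, first identical stretch: caggtggatgtcttcagacaaaatcttttc
Psme2b-ps, first identical stretch: caggtggatgtcttcagacaaaatcttttc

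Of 637 windows of 30 bases on the counted part of Psme2, 493, or 77.4%, also occur exactly in Psme2b-ps, and all 637 do so with up to 2 mismatches, the number that the authors' alignment allowed. The authors kept uniquely aligning footprints. Had the copy been in their reference and every footprint with a second place within 2 mismatches been dropped, no window of Psme2 could have been counted. A level of 96.0 CPM was listed. Psme2b-ps had no row, and whether it was in their reference is not given in the sources used here. If only exactly shared footprints had been dropped, the level of Psme2 over its remaining positions would be 644 CPM per kilobase and the ratio of Psme1 to Psme2 0.485. The order of Psme1 and Psme2 is therefore uncertain.

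The other members were nearly free of this. Exact sharing was 0% for Psmb8, Psmb9, Psmb10, Psme1, Tapbp and B2m, and with 2 mismatches it reached 0.267% in Psmb8 and 0% in the other 5. GENCODE holds 2 gene models named Psmb9, and sharing between them was not searched. Tap1 and Tap2 shared 45 windows with each other exactly, 2.15% and 2.22% of each, and 115 with up to 2 mismatches.

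**Figure D3:**
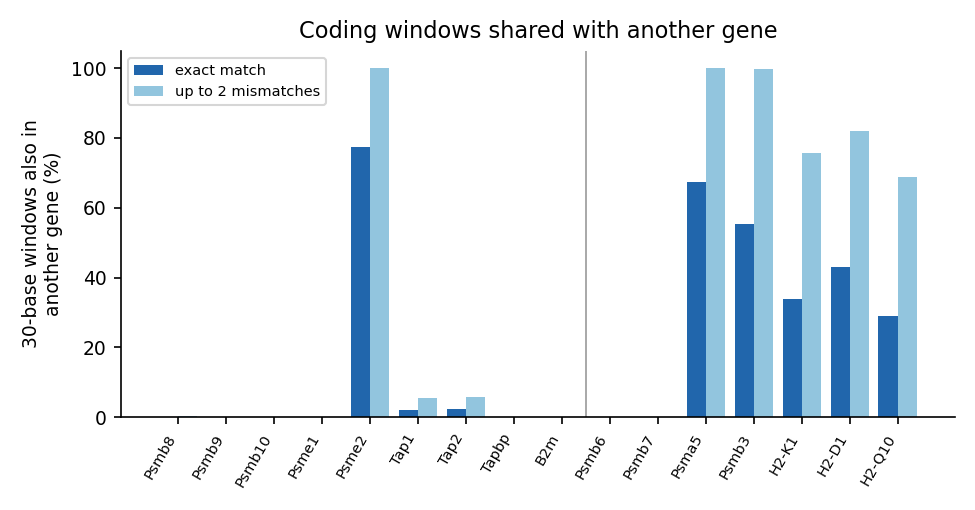
Percent of the 30-base coding windows of each gene that also occur in the coding sequence of another gene, exactly (dark bars) or with up to 2 mismatches (light bars), for the 9 members (left of the line) and 7 partner genes. Psme2 reaches 77.4% and 100%, Tap1 and Tap2 stay under 6%, and the heavy chains H2-K1, H2-D1 and H2-Q10 lie between 68.9% and 82.0% with mismatches.

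The transporter TAP is a dimer of 1 copy each of the products of Tap1 and Tap2. Tap1 (chromosome 17, 34324498 to 34334170, plus strand, 11 coding exons) had the lowest level per kilobase of all members, 11.1, from 23.5 CPM, and 49.7% of genes were lower. Tap2 (chromosome 17, 34340472 to 34353266, plus strand, 11 coding exons) had 58.4 CPM, or 28.5 CPM per kilobase. Tap2 was 2.56 times Tap1. Their coding lengths in the table, 2115 and 2049 bases, are nearly equal, so the ratio hardly depends on length.

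Tapbp encodes tapasin, which bridges TAP and the class I heavy chain while peptide is loaded. It lies on chromosome 17 (34052844 to 34066235, plus strand, 8 coding exons) and had 81.6 CPM, or 60.8 CPM per kilobase. This was 2.14 and 5.47 times the levels of Tap2 and Tap1. Its relative Tapbpl (TAPBPR), a peptide editor outside the loading complex, was listed at 12.7 CPM per kilobase, so Tapbp was 4.78 times as high. The general endoplasmic reticulum chaperones that also serve the loading complex were higher, with Calr (calreticulin) at 2443, Pdia3 (ERp57) at 818 and Canx (calnexin) at 472 CPM per kilobase. Erap1, the aminopeptidase that trims peptides in this compartment, stood at 78.9 CPM per kilobase.

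B2m (chromosome 2, 121973422 to 121978819, plus strand, 3 coding exons) encodes beta-2-microglobulin. It had 4366 CPM on a coding length of 300 bases, or 14553 CPM per kilobase, and was seventh among 7500 genes. Only 6 genes were higher per kilobase. Ttr (transthyretin, a plasma protein made by hepatocytes) was 1.94 times B2m, and Alb (albumin) stood at 51734 CPM per kilobase. B2m was 23.5 times H2-Q10, a secreted class I heavy chain of liver, and 42.0 times H2-K1, a classical heavy chain. The 8 H2 heavy chain genes of the list with a row summed to 1095 CPM per kilobase, 88.3% of it in H2-Q10 and H2-K1, and B2m was 13.3 times this sum. H2-D1 was listed at 8.98 CPM per kilobase and H2-L had no row. Heavy chain genes resemble each other closely. With up to 2 mismatches, 75.8% of the windows of H2-K1, 82.0% of those of H2-D1 and 68.9% of those of H2-Q10 also lie in another gene, so their levels and the ratios to B2m are uncertain. Whether the mm9 heavy chain sequences used for alignment match those of FVB/N mice was not tested. Had every footprint shared within 2 mismatches been dropped, the same counts would make B2m 7.29 times H2-Q10 and 10.2 times H2-K1. Without division by length B2m was 7.67 and 12.0 times these genes. Against the sum of the heavy chains the ratio would be 3.80 if such footprints had been dropped, leaving out H2-Q1. It was 4.11 without division by length. Fcgrt, the heavy chain of the neonatal Fc receptor and another partner of beta-2-microglobulin, shares no window and stood at 169 CPM per kilobase.

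**Figure D4:**
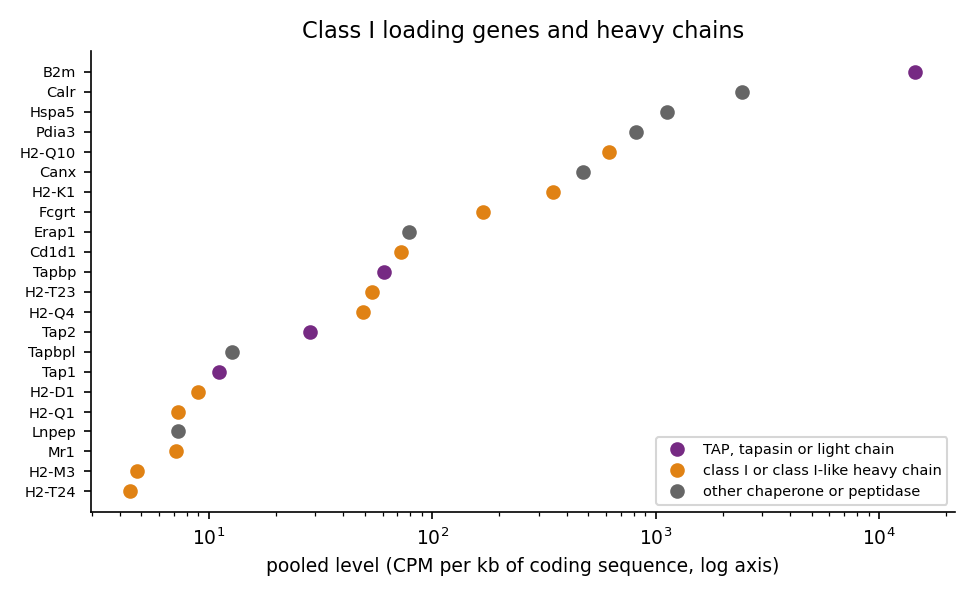
Pooled footprint level in CPM per kilobase (log axis) of TAP, tapasin and the light chain (purple), class I and class I-like heavy chains (orange) and other chaperones and peptidases (grey). B2m at 14553 lies above all others, Tapbp at 60.8 in the middle, and Tap2 and Tap1 at 28.5 and 11.1 below it.

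The rest of the pathway was taken from lists of genes by function. Of 21 subunits and cofactors of the 19S cap, which feeds proteins marked with ubiquitin into the core, 11 had a row, from 69.5 CPM per kilobase (Psmd9) to 169 (Psmd4) with a median of 100.0. Psme1 was above all 11, Psme2 was above 10 of them, and the 3 inducible subunits were below all 11. Shared windows were not searched for the cap subunits, and the level of Psme2 is uncertain, as described above. Of 5 assembly factors, 4 had a row, from 19.7 CPM per kilobase (Psmg4) to 471 (Pomp) with a median of 33.3. Pomp is the maturation factor that both kinds of core need. Of 11 interferon regulators of class I genes, among them receptors, kinases and transcription factors, 8 had a row. Their median was 32.7 CPM per kilobase, with Ifngr2 lowest at 4.66. Irf1, a transcription factor that acts on Psmb9 and Tap1, stood at 46.4. Nlrc5, the transactivator of class I genes, Jak2 and Socs1 had no row.

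Because immune cells carry immunoproteasome, markers of the cells of a liver were read on the same scale. Of 10 hepatocyte markers, 9 had a row, with a median of 5908 CPM per kilobase, led by Alb. Of 19 Kupffer cell and leukocyte markers, 12 had a row, from 3.09 (Ptprc) to 613 CPM per kilobase (Cd74) with a median of 40.8, which is within the range of the inducible subunits. Clec4f, a marker of Kupffer cells, the macrophages of the liver, was at 171, while the T cell and B cell markers Cd3e, Cd3g, Cd8a and Cd79a had no row. All 11 endothelial and stellate markers had a row, with a median of 11.4. Which cells held the footprints of each member was not tested, and in a bulk sample fewer cells of a type and less RNA per cell cannot be told apart.

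In mm9, 5 of the 9 lie on chromosome 17, in the major histocompatibility complex. Psmb9, Tap1, Psmb8 and Tap2 follow each other within 34335 bases, with 495 bases between the gene models of Tap1 and Psmb8, and Tapbp lies 252696 bases before Psmb9. Psmb9 and Tap1 are transcribed away from each other, and their gene models overlap by 200 bases at the starts, while 570 bases part their coding sequences, so no counted footprint of one lies in the other. Within this run of neighbours the level per kilobase ranged from 11.1 in Tap1 to 57.2 in Psmb8. Psme1 and Psme2 are neighbours on chromosome 14, 5911 bases apart.

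Promoters were searched for short motifs of interferon-responsive genes, as a description of the sequence. RefSeq promoters of the GRCm38.p6 build, each 250 bases before to 50 after a start, were found for 8 of the 9 members, and Tap2 had none. The gamma-activated sequence, a motif of genes induced by interferon-gamma, searched as TTCNNNGAA on both strands, occurred in 1 member and in 8.30% of all 32851 promoters. The interferon-stimulated response element, searched as GAAANNGAAA on both strands, occurred in 2 members and in 3.44% of all promoters. The other 5 members with a promoter held neither motif in this exact form in this window. Sites that deviate from these letters were not searched. The matches are printed with the motif in capitals, on the strand of the gene, because they are the only ones among the members. That of Psmb8 lies at chr17:34198088-34198117 (plus strand), that of B2m at chr2:122147538-122147567 (plus strand) and that of Psme1, just past the start, at chr14:55578493-55578522 (plus strand).
Psmb8, gamma-activated sequence: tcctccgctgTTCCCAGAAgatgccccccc
B2m, response element: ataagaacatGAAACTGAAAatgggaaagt
Psme1, response element on the opposite strand: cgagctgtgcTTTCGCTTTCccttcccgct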

How the data were processed

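The authors sequenced ribosome footprints of liver and removed adapters (FastX toolkit) and ribosomal RNA (Bowtie). Uniquely aligning footprints, with 2 mismatches allowed, were counted by them on the coding sequence of 1 RefSeq isoform per gene, the longest in mm9, without the initial 15 and final 3 codons. The authors passed genes above 1 CPM in at least 3 samples to edgeR (version not given in the sources used here). How they joined the libraries of a mouse is likewise not given there. For each gene, the authors deposited a log2 CPM averaged over all libraries and a coding length in bases. The other 4 columns hold the authors' comparison of the diets (fold change, its logarithm, p-value and false discovery rate). They were not used, so the diets were not compared.

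From the log2 CPM, CPM and CPM per kilobase of coding length were computed (Python 3.11.15, pandas 2.3.3). Lengths were checked against GENCODE vM1 (NCBIM37, the same build as mm9). A complete coding sequence was matched by symbol for 96.5% of genes, and the deposited length was 60 bases shorter in 85.8% of these and in all 9 members. The 18 codons left out of counting come to 54 bases, and no source used here gives the origin of the other 6. The rows hold 85.7% of all counts by their CPM. Genes such as Gapdh have no row, so a missing row says nothing about a level. Windows of 30 bases, taken outside these 54 bases, were searched on the sense strand in the longest coding sequence of every other GENCODE gene, by a search tested on simulated sequences. Samples were grouped by title. Members and lists were chosen with earlier results of these data known. Genes named are the members and genes of the lists.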

Additional observations from a re-analysis of the deposited data

How the results depend on the processing

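Levels were recomputed with other lengths, without division by length and over other sets of genes. The alternatives that use GENCODE lengths or shared windows, and those for Psmb8, the median constitutive subunit and the heavy chain sum, were chosen after seeing the data. With no spread between mice, a level or ratio was taken as moved past 1.5-fold and a position past 5 percentage points; of 121 values, 102 were within this, 18 moved and 1 reversed. The window alternatives kept the listed CPM and cut only the length, to the share of windows not found in another gene. They hold only if the shared footprints had been dropped. With exactly unique windows, Psme2 moved from 145 to 644 CPM per kilobase, and the ratio of Psme1 to Psme2 turned from 2.14 to 0.485. Within 2 mismatches Psme2 keeps no window, so it has no value. The ratio of B2m to H2-K1, 42.0 per kilobase, was 12.0 without division by length, 27.8 over exactly unique windows and 10.2 over windows unique within 2 mismatches. That of B2m to H2-Q10, 23.5, was 7.67 without division by length and 7.29 within 2 mismatches. That of B2m to the heavy chain sum, 13.3, was 4.11 and 3.80. When genes under a log2 CPM of 3 were dropped, the share of genes lower was 71.5% for Psmb8, 59.0% for Psmb9, 57.2% for Psmb10, 27.9% for Tap1, 55.9% for Tap2 and 72.7% for Tapbp. Without division by length it was 56.7% for Psmb9, 60.8% for Psmb10, 61.8% for Tap1 and 80.6% for Tap2. Under the other lengths, no division by length and both window sets, the ratios of Psmb6 and Psmb7 to their counterparts and to Psmb8, those of the median constitutive subunit to all 3 inducible subunits, and that of Tap2 to Tap1 moved by under 1.5-fold. Within 2 mismatches Psma5 keeps no window and was left out of that median. Many of the 102 could not move. GENCODE left the lengths of members, Psmb6 and Psmb7 unchanged, and most share no window. This fixed the ratios of Psmb6 to Psmb9 and Psmb7 to Psmb10. Lengths of RefSeq proteins and leaving out each mouse were not run, since no protein table was used here and the pooled value cannot be divided. No paired analysis was possible because the deposited abundance is pooled over the mice, and no mouse label occurs in both diets. The depth of the libraries is unknown and limits low levels most, such as that of Tap1.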
